A study of Mus musculus with 5 samples.

Results

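Occupancy of RNA Polymerase II phosphorylated at serine 2 was described at the cytosolic ribosomal protein genes of the large subunit in mouse T helper cell 2 (Th2) cultures. They were taken by name, as every gene of the deposited table called Rpl followed by a digit or Rplp0, Rplp1 or Rplp2, with pseudogene names left out, and 47 of the 11608 genes in the table matched. Naive CD4+CD62L+ T cells came from spleens of C57BL/6 mice aged 6 to 8 weeks, either Parp14+/+ or Parp14-/-, and how many mice were pooled is not given in the sources used here. All cultures were activated through CD3 and CD28 for 3 days with IL-4 at 10 ng/ml and an antibody to interferon gamma, then expanded for 4 days with IL-2 and IL-4. The 4 conditions were Parp14+/+, Parp14+/+ with PJ34, Parp14-/- and Parp14-/- with PJ34, with 1 library each. PJ34 is an inhibitor of several PARP enzymes. The labels give its dose as 10 µM on differentiated cells, and the methods as 5 µM during culture. The Input library has no column in the gene table, so no gene has a background value here.

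The large ribosomal subunit holds the catalytic centre that joins amino acids and the tunnel through which the new peptide leaves. Its proteins are, for the most part, made in equal amounts, and their genes are short, strongly transcribed in growing cells and rich in introns, many of which carry small nucleolar RNAs. Their mRNAs start with a run of pyrimidines, the terminal oligopyrimidine tract, through which growth signals control translation. Activated T cells raise ribosome production as they grow and divide. Polymerase phosphorylated at serine 2 of its C-terminal domain is the elongating form, and it usually builds up towards and beyond the 3′ end of a gene. PARP-14 is an ADP-ribosyltransferase that works with STAT6 in the response to IL-4.

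Runs of pyrimidines lay at or near many of the annotated starts. In the 60 bases from 40 before to 20 after the annotated start, the longest run of C and T had a median length of 12 bases among the 47 genes, with a range of 4 to 21. It reached at least 8 bases in 41 of 47 (87.2%), compared with 25 of 33 small subunit genes (75.8%) and 21.8% of all 11608 starts. A run was counted wherever it lay in the window, also where it ended before the annotated start, as in Rpl5 and Rpl8. The count is thus of runs near the start and not of tracts at the first base of the mRNA. The genes printed here include those whose ratio between a pair of libraries stood apart from 1, the highest in signal, and Rpl8, Rpl10 and Rpl26, which are described for their position or direction. Sequences are from NCBIM37, the assembly of mm9, 5′ to 3′ on the gene's strand, with the longest run of C and T in capitals.

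Rpl10, chrX:71516157-71516216, strand +: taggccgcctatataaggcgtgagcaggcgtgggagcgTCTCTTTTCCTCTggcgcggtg
Rpl13, chr8:125626277-125626336, strand +: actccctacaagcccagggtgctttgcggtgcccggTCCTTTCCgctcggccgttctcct
Rpl26, chr11:68715029-68715088, strand +: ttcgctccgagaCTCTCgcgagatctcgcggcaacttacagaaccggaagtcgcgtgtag
Rpl3, chr15:79913746-79913805, strand -: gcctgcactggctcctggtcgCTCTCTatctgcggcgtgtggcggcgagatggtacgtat
Rpl30, chr15:34372958-34373017, strand -: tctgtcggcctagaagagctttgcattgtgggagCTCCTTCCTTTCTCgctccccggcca
Rpl35a, chr16:33057183-33057242, strand +: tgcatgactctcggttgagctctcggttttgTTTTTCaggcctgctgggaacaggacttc
Rpl4, chr9:64021143-64021202, strand +: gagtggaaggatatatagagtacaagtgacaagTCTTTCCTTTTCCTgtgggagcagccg
Rpl5, chr5:108329570-108329629, strand +: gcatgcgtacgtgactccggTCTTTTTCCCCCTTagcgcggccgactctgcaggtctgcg
Rpl8, chr15:76734490-76734549, strand +: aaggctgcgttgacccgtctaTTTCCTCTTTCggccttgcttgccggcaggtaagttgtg
Rpl9, chr5:65782212-65782271, strand -: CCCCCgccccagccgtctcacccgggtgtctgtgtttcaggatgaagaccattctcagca

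Rpl4, Rpl30 and Rpl5 carried runs of 14 bases and Rpl10 a run of 13. Rpl3, Rpl35a, Rpl9 and Rpl26 had no run over 6 bases in this window. The annotated starts were not all transcription starts: the Gencode 5′ end lay within 100 bp for 29 of 47 genes. Rpl38, whose table entry begins far upstream of its Gencode start, is not printed. For Rpl3, Rpl9 and Rpl35a the Gencode 5′ end lay upstream of the printed window, by more than 100 bp from the annotated start in Rpl9 and Rpl35a. The short runs of these genes thus do not show whether a tract lies at the Gencode 5′ end. From 250 bases before to 50 after the start, counting either strand, CCGGAAG (the core bound by ETS factors) was found in 17 of 47 genes (36.2%) and in 17.6% of all starts. AAGATGG (a core of YY1 sites) was found in 9 (19.1%) and in 8.65% of all. GGGCGG (the core of Sp1 sites) was found in 25 (53.2%) against 58.9%, and TATAAA in 4 (8.51%) against 7.74%. These matches describe letters and not binding.

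Signal is given as an average peak height, the number of overlapping fragments at the highest point of an active region, averaged over the active regions of a gene. The large subunit genes were among the most heavily occupied genes of these cells. Their median height was 29 in Parp14+/+, 26 in Parp14+/+ with PJ34, 23 in Parp14-/- and 23 in Parp14-/- with PJ34. The medians over all genes were 8, 8.33, 8 and 7.4 in the same order, and the median large subunit gene stood at percentile 94.7, 93.9, 91.7 and 92.8 of the table. Heights of the 47 genes ran from 8 to 77 in Parp14+/+ and from 10 to 65 in Parp14-/-, and all 47 were marked in the table as having an interval in each of the 4 libraries, although no interval lay over Rpl14 itself in Parp14+/+ with PJ34. Summed over the 47 genes, the height was 1471 in Parp14+/+ and 1278.5, 1219.5 and 1225 in the other 3 libraries. Parp14+/+ alone held the highest value in 23 of 47 genes (48.9%), compared with 20.8% of all genes of the table. The lowest value was in Parp14+/+ alone in 2 genes, in Parp14+/+ with PJ34 in 15, in Parp14-/- in 14 and in Parp14-/- with PJ34 in 10 (4.26%, 31.9%, 29.8% and 21.3% of the 47, against 18.4%, 12.9%, 18.1% and 30.7% of all genes).

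**Figure D1:**
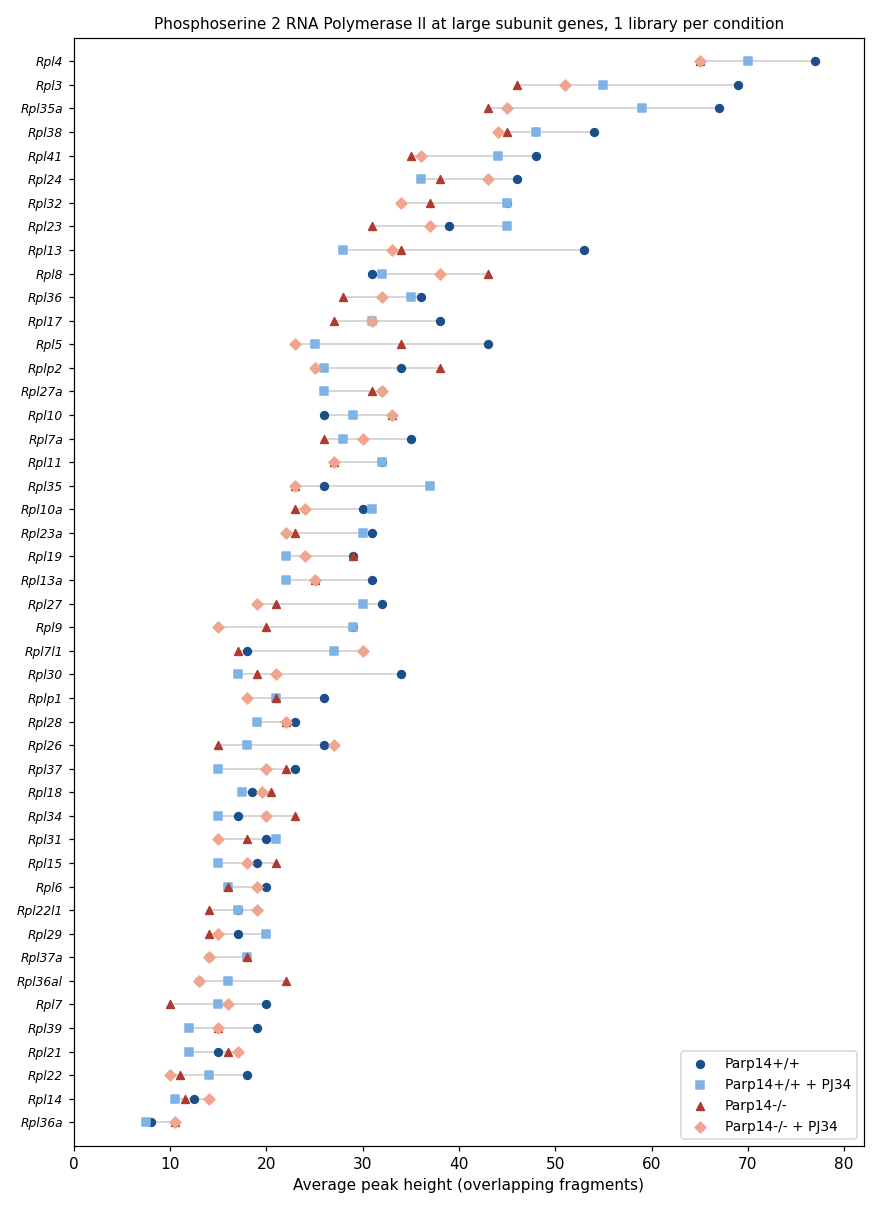
Average peak height (overlapping fragments) of 46 large subunit genes in the 4 libraries, 1 point per library, with genes ordered by their mean and a grey line from the lowest to the highest value; equal values lie on each other. Parp14+/+ alone was highest in Rpl13 and Rpl30 among others, while Rpl8 was highest in Parp14-/-.

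Parp14 itself was covered by called intervals over 59.2% and 53.9% of its length in the Parp14+/+ libraries and over 6.95% and 8.51% in the Parp14-/- libraries. Its heights differed less, at 8 and 11 in the Parp14+/+ libraries and 6.67 in each Parp14-/- library. Gata3, the Th2 master factor, had heights of 43 to 60. Il4 had heights of 61, 39, 29 and 18 in Parp14+/+, Parp14+/+ with PJ34, Parp14-/- and Parp14-/- with PJ34. Of the Th1 genes, Ifng stood at 14 to 22 and Tbx21 at 19 to 28. Cd8a, Ms4a1, Cd79b, Itgam and Csf1r were at 8.5 or lower. The T cell genes Cd4, at 4 to 7, and Cd3e, at 6.5 to 9.5, lay in or near the same range, while Cd3d had 11 to 22 and Cd3g 9 to 15, so a low height does not separate the cell types here. Cd79a had 28 to 38, and all 4 of its values were equal to those of its neighbour Rps19, with under 0.5% of Cd79a covered by an interval. In a bulk culture a change in the share of cells and a change in polymerase per cell cannot be told apart.

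The untreated pair asks what loss of PARP-14 does where PJ34 is absent. The Parp14+/+ to Parp14-/- ratio of height was above 1 in 36 of 47 genes and below 1 in 10, with a median of 1.21 and quartiles of 1.04 and 1.36. Over all genes the median was 1.00, with 46.4% above 1 and 42.8% below. Under the study's ratio thresholds, with a height of 11 put in place of its limit for strong genes (above 1.4 or below 0.7, or at least 1.2 or at most 0.83 where either height passed 11, with an interval in the higher library), 27 genes (57.4%) were higher in Parp14+/+ and 5 (10.6%) were lower. Without the clause on height, the ratios of 1.4 and 0.7 alone called 11 higher and 1 lower, and in the 3 pairs that follow they called 3 and 1, 8 and 1, and 3 and 3. The share of all genes called by these ratios alone was not counted, so these counts stand without a comparison. The thresholds with the clause on height called 13.3% of all genes higher and 11.1% lower, or 27.1% and 25.9% of the 3943 genes over a height of 11. With 1 library per condition no test was run. Each ratio carries instead a 95% counting interval (exact Clopper-Pearson on summed heights), which covers counting error only and no difference between cultures.

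The interval lay above 1 in 3 of 47 genes in the untreated pair, among them Rpl3 and Rpl35a, which were both among the 5 tallest genes. Rpl3, a protein that reaches towards the peptidyl transferase centre, had heights of 69 in Parp14+/+, 55 with PJ34, 46 in Parp14-/- and 51 in Parp14-/- with PJ34. Its Parp14+/+ to Parp14-/- ratio was 1.5 (1.02 to 2.23). The untreated Parp14+/+ height was taken past the 3′ end and the untreated Parp14-/- height at the start, so this ratio does not compare the same place. Rpl35a, which is mutated in Diamond-Blackfan anaemia, had heights of 67, 59, 43 and 45 in the same order, so that both Parp14+/+ libraries were above both Parp14-/- libraries. Its ratio was 1.56 (1.05 to 2.34). No gene had an interval below 1. Among all genes, 0.784% had such an interval above 1 and 1.6% below 1, and among genes over a height of 11 the shares were 1.6% and 4.01%.

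The largest ratios among genes with a height of at least 20 were at lower signal, with intervals that reached 1. Rpl7 had 20 fragments in Parp14+/+, 15 with PJ34, 10 in Parp14-/- and 16 in Parp14-/- with PJ34, a ratio of 2.00 (0.894 to 4.78). All of these values were also those of its neighbour 4930444P10Rik. The height of 10 in Parp14-/- lay inside that neighbour, past the 3′ end of Rpl7, and the height of 20 at the start of Rpl7. Rpl30 had 34, 17, 19 and 21, a ratio of 1.79 (0.992 to 3.32). Here the untreated Parp14+/+ library stood apart from the other 3. Rpl13 followed the same pattern with 53, 28, 34 and 33, a ratio of 1.56 (0.995 to 2.47). The 5 genes below the thresholds were Rpl36al (0.591), Rpl8 (0.721), Rpl34 (0.739), Rpl37a (0.778) and Rpl10 (0.788), and none of their intervals excluded 1.

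**Figure D2:**
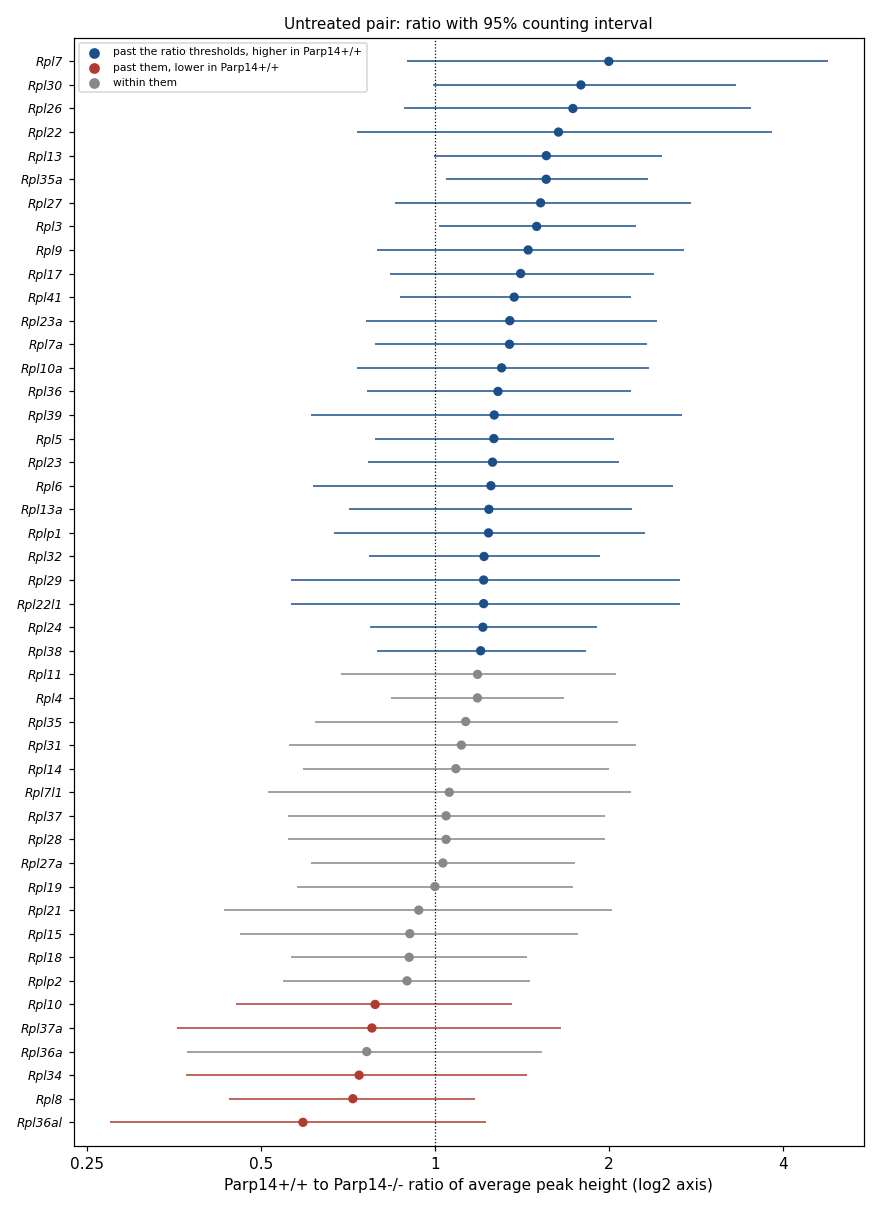
Parp14+/+ to Parp14-/- ratio of average peak height (log2 axis) of 46 genes in the untreated pair, with its 95% counting interval; blue and red points passed the ratio thresholds and grey points did not. The intervals of Rpl35a and Rpl3 lay wholly above 1 and the others drawn included 1.

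In the PJ34-treated pair, which compares the genotypes with PARP activity inhibited, the genes did not lean towards Parp14+/+. The ratio of Parp14+/+ with PJ34 to Parp14-/- with PJ34 was above 1 in 22 genes and below 1 in 24, with a median of 0.976 and quartiles of 0.842 and 1.23. All genes together leaned the other way, with a median of 1.13, 60.3% above 1 and 29.9% below. The thresholds called 14 of 47 higher in Parp14+/+ (29.8%, against 20.4% of all genes and 36.6% of genes over a height of 11) and 8 lower (17.0%, against 6.37% and 15.8%). The median gene of Parp14-/- with PJ34 stood 0.10 below Parp14+/+ on the log2 scale (a log2 shift of -0.10). When the libraries were rescaled to remove such shifts, the median of the 47 genes was 0.871, with 6 called higher and 21 lower. The shares of all genes called were not counted after rescaling, and those given above are for heights before it. Rpl9 was the only gene whose interval excluded 1, at 29 against 15 and a ratio of 1.93 (1.00 to 3.88). The interval was above 1 in 2.13% of all genes and 3.46% of those over a height of 11, and below 1 in 0.629% and 1.67%. Its neighbours Klb and Lias carried the same 4 values.

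The comparison of Parp14+/+ with and without PJ34 asks what inhibition does where PARP-14 is present. It shares the Parp14+/+ library with the untreated genotype pair, so the pair of comparisons is not independent and a high value in that library raises each ratio. The Parp14+/+ to Parp14+/+ with PJ34 ratio was above 1 in 33 genes and below 1 in 10, with a median of 1.14, against 0.960 over all genes, of which 37.4% were above 1 and 52% below. The thresholds called 22 genes higher without PJ34 (46.8%, against 9.36% of all genes and 22% of genes over a height of 11) and 4 lower (8.51%, against 11.7% and 23.3%). The intervals of Rpl30 at 2.00 (1.09 to 3.82), Rpl13 at 1.89 (1.18 to 3.11) and Rpl5 at 1.72 (1.03 to 2.94) lay above 1, and none lay below. Over all genes 0.56% had an interval above 1 and 0.784% below, or 1.47% and 1.6% of those over a height of 11. Rpl7l1 at 0.667 and Rpl35 at 0.703 had the lowest ratios, with 18 against 27 and 26 against 37 fragments.

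Where PARP-14 was absent, the median ratio with and without PJ34 was at 1. The Parp14-/- to Parp14-/- with PJ34 ratio had a median of 1.00 and quartiles of 0.903 and 1.10, with 19 genes above 1, 20 below and 8 equal. All genes had a median of 1.07, with 53.8% above 1 and 34.4% below. The thresholds called 7 genes higher without PJ34 (14.9%, against 14.4% of all genes and 33.5% of genes over a height of 11) and 5 lower (10.6%, against 5.31% and 12.5%), and no interval excluded 1. After the same rescaling the median was 0.931, with 4 called higher and 11 lower, so that the balance of the calls turned. The shares of all genes called were not counted after rescaling, and those given in this paragraph are for heights before it. Over all genes 1.03% had an interval above 1 and 0.267% below, or 2.28% and 0.617% of those over a height of 11. The highest ratios were those of Rpl36al at 1.69, Rplp2 at 1.52 and Rpl5 at 1.48. The lowest were Rpl26 at 0.556 and Rpl7l1 at 0.567. Whether PJ34 acted differently in the 2 genotypes could not be tested with 1 library per condition.

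Across the 4 libraries together, the Parp14+/+ values, with and without PJ34, were both above the Parp14-/- values in 17 of 47 genes (36.2%, against 23.1% of all genes). They were both below them in 6 (12.8%, against 10.5%), namely Rpl8, Rpl10, Rpl18, Rpl21, Rpl34 and Rpl36a. The untreated values were both above the PJ34 values in 6 genes (12.8%, against 10.9%), namely Rpl5, Rpl13, Rpl15, Rpl19, Rpl37 and Rplp2, and both below them in Rpl7l1 alone (2.13%, against 10.1%). The libraries of a genotype are not replicates of each other, since they differ in PJ34.

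**Figure D3:**
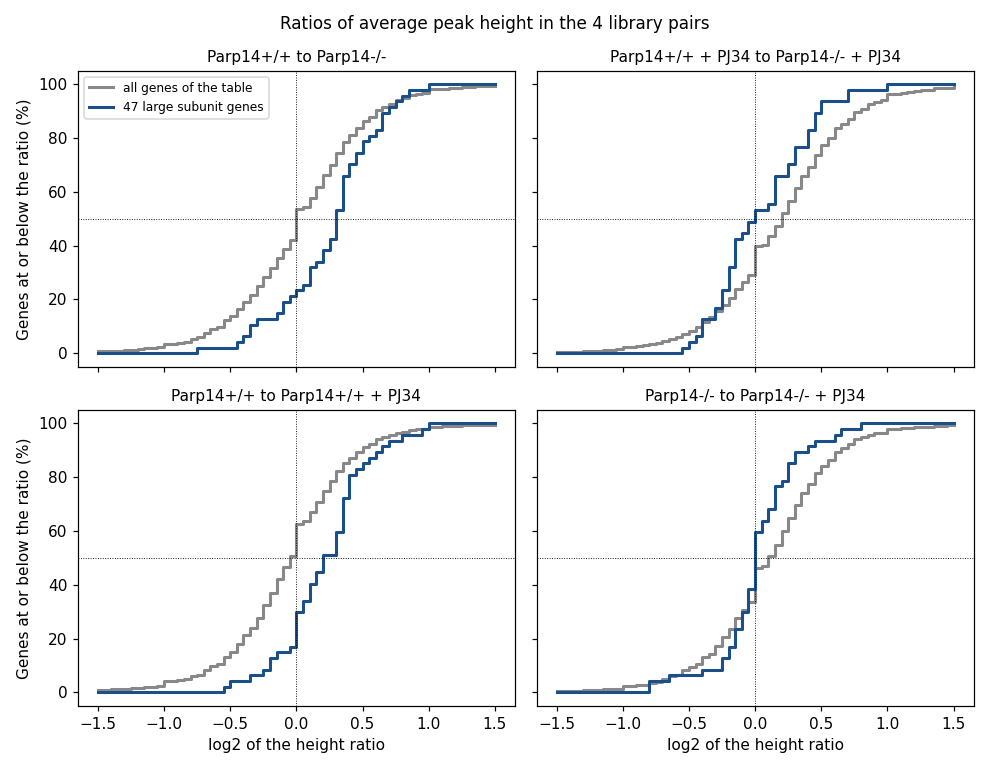
Cumulative share of genes (%) at or below each log2 ratio of average peak height in the 4 library pairs, for the 47 large subunit genes (blue) and all genes of the table (grey). The blue line lies to the right of the grey line in the untreated genotype pair (medians 1.21 and 1.00) and in the Parp14+/+ pair with and without PJ34 (1.14 and 0.960), and to its left in the PJ34-treated genotype pair (0.976 and 1.13) and in the Parp14-/- pair (1.00 and 1.07).

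The small subunit genes gave nearby medians in all 4 pairs. Over 33 genes their medians were 1.10 for the untreated genotype pair, 0.926 for the treated genotype pair, 1.13 for PJ34 in Parp14+/+ and 1.00 for PJ34 in Parp14-/-. The 14 other measured genes with terminal oligopyrimidine mRNAs, mostly translation factors, had medians of 1.26, 0.976, 1.19 and 0.972. No difference between the lists was tested.

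By role, the 11 genes of the exit tunnel group, which surround the path of the new peptide, included 10 with an untreated Parp14+/+ to Parp14-/- ratio above 1 and none below. Rpl4, whose loop lines the tunnel, was the tallest of all 47 genes with 77, 70, 65 and 65 fragments and a ratio of 1.18 (0.840 to 1.67), short of the thresholds. Rpl38, known for its part in the translation of Hox mRNAs, had 54, 48, 45 and 44 and a ratio of 1.2. Rpl17 had 38, 31, 27 and 31, a ratio of 1.41. Rpl23a had 31, 30, 23 and 22, so that its Parp14+/+ libraries were both above its Parp14-/- libraries.

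Rpl22, which T cell development in the thymus depends on, was lower throughout, with 18, 14, 11 and 10 fragments and a ratio of 1.64 (0.732 to 3.83). Rpl19 was level in the untreated pair at 29 and 29 and had 22 and 24 with PJ34. Rpl31 had 20, 21, 18 and 15. Rpl37 had 23, 15, 22 and 20, with its low value in Parp14+/+ with PJ34. Rpl39, a short protein deep in the tunnel, had 19, 12, 15 and 15. Rpl35 had its highest value, 37, in Parp14+/+ with PJ34, against 26, 23 and 23 in Parp14+/+, Parp14-/- and Parp14-/- with PJ34.

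The peptidyl transferase and subunit joining group was divided. Rpl3 and Rpl24 were higher in untreated Parp14+/+ and Rpl8 and Rpl10 were lower. Rpl24, which forms a bridge to the small subunit, had 46, 36, 38 and 43, a ratio of 1.21. Rpl8, which supports the catalytic centre, had 31 and 32 in the Parp14+/+ libraries and 43 and 38 in the Parp14-/- libraries, so that the genotypes did not overlap, with a ratio of 0.721 (0.439 to 1.17). Its untreated Parp14+/+ height was taken past the 3′ end and its other heights at the start, so that ratio does not compare the same place. Rpl10, among the last proteins to join the subunit, had 26, 29, 33 and 33, also without overlap between the genotypes, and a ratio of 0.788 (0.453 to 1.36).

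Rpl5 and Rpl11 travel together with the small ribosomal RNA of the large subunit and, when free, restrain the p53 inhibitor Mdm2. Rpl11 had 32 and 32 fragments in the Parp14+/+ libraries and 27 and 27 in the Parp14-/- libraries, with no difference by PJ34. Rpl5 had 43, 25, 34 and 23, and was lower with PJ34 in each genotype. The stalk proteins Rplp1 and Rplp2 recruit translation factors. Rplp1 had 26, 21, 21 and 18, and Rplp2 had 34, 26, 38 and 25, so that Rplp2 was also lower with PJ34 in each genotype. Rplp0 and Rpl12 were not analysed here. Rpl13a, which also silences inflammatory mRNAs when released from the ribosome, had 31, 22, 25 and 25.

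The paralogue copies differed among themselves. Rpl7l1, a relative of Rpl7 that acts in subunit assembly, had 18 and 17 fragments in the untreated libraries and 27 and 30 in the PJ34 libraries, so that its treated and untreated values did not overlap. All of these values were also those of its neighbour 2310039H08Rik. The highest point lay inside that neighbour in every library but untreated Parp14-/-, and its part in the difference was not tested. Rpl7 had 20 and 10 untreated and 15 and 16 treated. Rpl36al, a retrotransposed copy of Rpl36a, had 13, 16, 22 and 13, with its high value in untreated Parp14-/-. Its neighbours Lrr1 and Mgat2 carried the same values. Rpl36a had the lowest mean height of the 47 genes, with 8, 7.5, 10.5 and 10.5 averaged over 2 active regions. Its highest points stood at 14, 12, 18 and 18 in the same order. Rpl22l1, which can replace Rpl22, had 17, 17, 14 and 19. Reads that fit more than 1 place are not counted, and whether this lowered the values of any of these copies was not measured.

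The 24 genes outside these groups had a median untreated Parp14+/+ to Parp14-/- ratio of 1.25, from 0.739 for Rpl34 to 2.00 for Rpl7, with 18 above 1 and 6 below. With PJ34 the same 24 had a median of 0.935, from 0.706 to 1.93. Rpl27 had 32, 30, 21 and 19, and Rpl41, which encodes the shortest protein of the set, had 48, 44, 35 and 36. In these the Parp14+/+ values were all above the Parp14-/- values. Rpl34 had 17, 15, 23 and 20, the opposite order.

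Of the other tall genes of these 24, Rpl32 had 45, 45, 37 and 34, Rpl36 had 36, 35, 28 and 32, and Rpl10a had 30, 31, 23 and 24, each with both Parp14+/+ values on top. Rpl23 had 39, 45, 31 and 37, with the same order of the genotypes. Rpl7a, with 35, 28, 26 and 30, and Rpl6, with 20, 16, 16 and 19, were highest in untreated Parp14+/+ only. Rpl27a had 32, 26, 31 and 32 and Rpl28 had 23, 19, 22 and 22, so that the library low in each was Parp14+/+ with PJ34. Rpl15 was also lowest there, with 19, 15, 21 and 18. Rpl29 had 17, 20, 14 and 15. Rpl37a had 14 and 14 in untreated Parp14+/+ and treated Parp14-/- and 18 and 18 in the other pair of libraries. Rpl14, Rpl18 and Rpl21 ranged from 10.5 to 14, from 17.5 to 20.5 and from 12 to 17 over the 4 libraries. The values of Rpl14 and Rpl18 were averages over 2 active regions, and the highest points of Rpl18 stood at 27 to 33. Of the exit tunnel group, Rpl26, which raises translation of p53 mRNA, had 26, 18, 15 and 27 with a genotype ratio of 1.73 untreated and 0.667 treated.

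Small nucleolar RNA genes lay inside 19 of the 47 genes. These hosts were taller, with a median height in Parp14+/+ of 34 against 24.5 for the other 28, and their median ratios in Parp14+/+ with and without PJ34 were 1.25 and 1.07. The untreated genotype medians were 1.26 and 1.19. In the PJ34-treated genotype pair the hosts had the lower median, 0.933 against 1.09, with 7 of 19 above 1 against 15 of 28, and in Parp14-/- with and without PJ34 both medians were 1.00.

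The highest point of the signal lay in different places in the 4 libraries. It was past the annotated 3′ end in 37 of 47 genes in Parp14+/+, 32 in Parp14+/+ with PJ34, 28 in Parp14-/- and 23 in Parp14-/- with PJ34. Of these points past the end, 11, 10, 7 and 7 lay inside another listed gene, and the part of that gene was not tested. The highest point was within 500 bp of the start in 9, 13, 17 and 20 genes in the same order, and inside the body in 1, 2, 2 and 4. Where it lay past the end, the median distance was 1000 bp in Parp14+/+ and 981 bp in Parp14-/-. In 17 genes it was past the end in all 4 libraries, among them Rpl4, Rpl35a, Rpl38 and Rpl5, and in Rpl10 and Rpl36a it was at the start in all 4. Rpl10 is the gene printed above with its run of pyrimidines from 2 bases before the start, and its summit lay within 28 bp of that start in every library.

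From Parp14+/+ to Parp14-/-, the highest point was past the end in the first and at the start in the other in 11 genes: Rpl3, Rpl7a, Rpl8, Rpl9, Rpl13a, Rpl18, Rpl29, Rpl36al, Rpl37, Rpl41 and Rplp1. The reverse held for 3, Rpl7, Rpl22 and Rpl31. In Rpl3 the highest point lay 993 bp past the end at a height of 69 in Parp14+/+, and 4 bp from the start at a height of 46 in Parp14-/-. In Rpl8 it lay 1289 bp past the end at 31 in Parp14+/+ and 31 bp from the start at 43 in Parp14-/-. Each interval is deposited with only its highest point, so the height at the other end of these genes is not known. The untreated genotype ratios of the genes named in this paragraph thus compare heights at different places.

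The same count was made for genes with 1 active region, at most 10000 bp long and over a height of 11 in every library. Among the 41 large subunit genes of this kind the summit was past the end in 82.9%, 73.2%, 58.5% and 51.2% in Parp14+/+, Parp14+/+ with PJ34, Parp14-/- and Parp14-/- with PJ34. The 31 small subunit genes gave 77.4%, 58.1%, 41.9% and 38.7%. The 802 other genes gave 47.4%, 46.3%, 43.3% and 42.5%. From untreated Parp14+/+ to untreated Parp14-/- the summit went from past the end to the start in 10 of 41 (24.4%) large subunit genes, 12 of 31 (38.7%) small subunit genes and 38 of 802 (4.74%) other genes. No test was run on these shares, since genes of a library are not replicates of its condition.

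**Figure D4:**
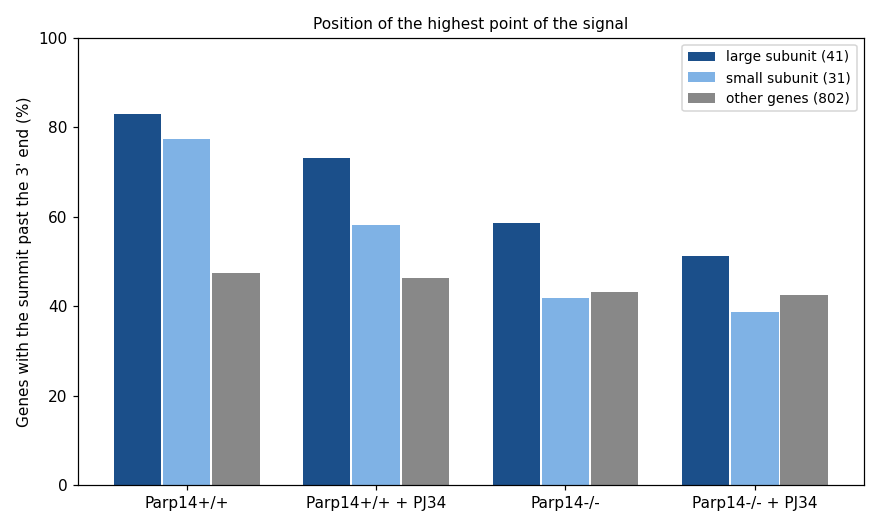
Share of genes (%) whose highest point of signal lay past the annotated 3′ end, in each of the 4 libraries, for large subunit, small subunit and other genes of the same height and length limits. The share fell from 82.9% to 51.2% in large subunit genes from Parp14+/+ to Parp14-/- with PJ34, and from 47.4% to 42.5% in other genes.

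Called intervals covered the whole gene in 43, 39, 38 and 40 of the 47 genes in Parp14+/+, Parp14+/+ with PJ34, Parp14-/- and Parp14-/- with PJ34, compared with 11.1%, 8.89%, 8.23% and 8.01% of all genes. The median covered share of a gene was 100% in each library. The interval at a large subunit gene had a median length of 9000, 8250, 7950 and 8100 bp, and it was longer in Parp14+/+ than in Parp14-/- in 36 of 47 genes and shorter in 10. It also ran further past the 3′ end in Parp14+/+ in 37 genes and less far in 7. With PJ34 the Parp14+/+ interval was longer in 25 genes and shorter in 18. The median length over all intervals was 5250 bp in Parp14+/+ and 4500 bp in Parp14-/-, so intervals were shorter in untreated Parp14-/- across the genome too. With PJ34 it was 4350 bp in Parp14+/+ and 4950 bp in Parp14-/-, the reverse order. The counts of longer and further intervals were not made over all genes, so they are not shown to be particular to these genes.

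Because these genes are short and lie close to others, many heights are not theirs alone. An interval was shared with another listed gene in 33, 33, 32 and 33 of the 47 genes in the same order, in 30 of them in all 4 libraries, and 29 had the same 4 values as a neighbour. Listed genes inside a large subunit gene count as neighbours here. Snora70, the only gene with the same values as Rpl10, lies inside Rpl10. Rpl13a carried the values of Flt3l, Rpl4 those of Snapc5 and Zwilch, Rpl38 those of Ttyh2, Rpl35a those of Lmln and Rpl8 those of Zfp647. Likewise, Rpl7l1 carried the values of 2310039H08Rik. In Rpl32, Rpl35, Rpl36 and Rpl5 the highest point lay inside a neighbour, Cand2, Wdr38, Lonp1 and Dipk1a, in all 4 libraries. The part of such neighbours in the ratios was not tested gene by gene. For the 18 genes that shared their 4 values with no other listed gene, among them Rpl3, Rpl13 and Rpl26 but also Rpl5 and others that share an interval, the untreated Parp14+/+ to Parp14-/- median was 1.26, with 11 called higher and 2 lower.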

How the data were processed

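Per the methods of the study, chromatin of each culture was precipitated with an antibody to RNA Polymerase II phosphoserine 2, 36-nt reads were mapped to mm9 with ELAND, duplicates were removed and each library was reduced by the authors to the same number of uniquely mapped alignments. Intervals were called in each library with SICER against Input (SICER and mm9 are also named in the submitters' processing notes; versions are not given in the sources used here). The deposited gene table holds a signal per gene and library, the average peak height over the active regions of a gene, and the deposited tracks hold the intervals with their highest point. Sequence shared with processed copies of ribosomal protein genes gives no unique reads. The table also has 8 columns of per-sample values of other libraries, which were not used, and its interval start and end positions were converted to count from 1.

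Members and comparison lists were chosen with earlier results of these data known, as was the height of 11 in the ratio thresholds, which stands in for a limit that the study gives on another scale. Ratios were taken without a pseudocount, as untreated to treated or Parp14+/+ to Parp14-/-. The 95% interval of a ratio treats summed heights as counts (exact Clopper-Pearson) and was tried on simulated Poisson counts. The simulation did not copy the choice of the highest point of a region, so it cannot show how well the interval holds for such heights. With 1 library per condition no test between conditions was run. Genes named in the text are those of fixed role groups, the 5 tallest, the 5 highest and 5 lowest ratios of each pair among genes with a summed height of at least 20, those whose interval excludes 1, and those sharing an interval with a neighbour. Of the 28 genes in the role groups 23 are in the table; Rpl3l, Rpl10l and Rpl39l, like Rplp0 and Rpl12, were not analysed here. From the small subunit list, 9 names of kinases and a binding protein were left out. All 47 names fit the transcript accession of their line. Sequences and motifs were read from NCBIM37, and small nucleolar RNA genes from its Gencode annotation. Python 3.11.15 was used with numpy 2.4.6, scipy 1.17.1, pandas 2.3.3 and matplotlib 3.10.9. Values of 1 large subunit gene and of some other genes are not reported here by name, and counts and medians over the 47 genes include it.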

Additional observations from a re-analysis of the deposited data

Results flagged for a closer look

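Some genes passed the ratio thresholds in opposite directions in the 2 genotypes or with and without PJ34. With 1 library per condition the difference was not tested. For PJ34, the untreated to treated ratio in Parp14-/- was 0.556 for Rpl26 and 0.625 for Rpl7, against 1.44 and 1.33 in Parp14+/+. It was 1.69 for Rpl36al and 1.29 for Rpl37a in Parp14-/-, against 0.813 and 0.778 in Parp14+/+. These 4 genes are 8.51% of the 47, and 3.46% of all genes behaved in this way. For the genotypes, the Parp14+/+ to Parp14-/- ratio with PJ34 was 0.667 for Rpl26, 0.810 for Rpl30 and 0.8 for Rpl39, against 1.73, 1.79 and 1.27 without PJ34. It was 1.23 for Rpl36al and 1.29 for Rpl37a with PJ34, against 0.591 and 0.778 without. These 5 genes are 10.6% of the 47, against 2.62% of all genes. Rpl26, Rpl36al and Rpl37a are in both lists, which rest on the same heights. In neither case was the share among genes over a height of 11 counted, and the thresholds call such genes more often than all genes.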

How the results depend on the processing

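No paired analysis was possible because each condition has 1 library, and for the same reason no library was left out. The untreated Parp14+/+ to Parp14-/- median and the PJ34 median in Parp14+/+ stayed above 1 under every alternative run, and values moved as follows. With libraries rescaled to the median gene, the treated genotype median was 0.871 with 6 higher and 21 lower, and the PJ34 median in Parp14-/- was 0.931 with 4 higher and 11 lower. With genes sharing an interval left out (12 to 14 genes remained), the untreated genotype pair had 8 higher and 2 lower, the treated pair a median of 0.872 with 1 higher and 4 lower, PJ34 in Parp14+/+ a median of 1.25 with 8 and 1, and PJ34 in Parp14-/- 2 and 2. With genes of the same values as a neighbour left out, chosen after seeing the data, 18 genes remained: 11 higher and 2 lower in the untreated pair, a median of 0.879 with 4 and 5 in the treated pair, 11 and 1 for PJ34 in Parp14+/+, and 2 and 2 in Parp14-/-. Counts fall in these by construction, since fewer genes remain. In the treated pair the balance also turned, from 14 higher and 8 lower over all 47 genes, and the cause of that was not tested. Under the thresholds of 1.4 and 0.7 alone the counts were 11 and 1 in the untreated pair, 3 and 1 in the treated pair, 8 and 1 for PJ34 in Parp14+/+, and 3 and 3 in Parp14-/-. Among genes that reach a summed height of 20, 2 genes were lower for PJ34 in Parp14+/+ and 3 in Parp14-/-, with 38 genes left in each. With 1 kb added on both sides of a gene, the median covered share was 97.2%, 96.4%, 94.4% and 92.1% in Parp14+/+, Parp14+/+ with PJ34, Parp14-/- and Parp14-/- with PJ34. Where no construction is given, the cause was not tested. The shares of all genes called higher or lower were not counted under any of these alternatives, so the counts stand without a comparison. The heights are low: 33 of 47 genes reached a summed height of 20 in every pair, and the counting intervals of most ratios include 1.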
